A study of Mus musculus with 4 samples.

Results

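Foxp1 recovery was examined over the regions of the genes named Zfp and a number, the mouse zinc finger protein genes, in basal and luminal cells of the mammary gland. They were chosen by name alone: every symbol in the gene table that consists of Zfp, a number and at most 1 letter, without Zfp36. The name fits 385 of 24548 genes, and 371 of them had the 40 or more reads over the 4 libraries needed for a ratio. The chromatin came from basal and luminal epithelial cells of wild-type FVB/N females (FBV/N in the sample labels) aged 10 to 12 weeks, with no treatment. Chromatin immunoprecipitation followed by sequencing (ChIP-seq) gave 4 libraries, 1 each of basal Foxp1 ChIP, basal input, luminal Foxp1 ChIP and luminal input, where input is chromatin sequenced without an antibody. The sources used here do not say how many animals went into each library or whether a control antibody was used.

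Most Zfp genes encode proteins with several C2H2 zinc fingers, short folds held by a zinc ion that read DNA in tandem. Many of these proteins also carry a KRAB domain, which recruits the corepressor Trim28 and silencing enzymes to transposons and other repeats. KRAB zinc finger genes arose by repeated duplication and often lie in clusters of similar copies, whereas other Zfp genes stand alone and serve as promoter-binding regulators, corepressors or RNA-binding proteins. The symbol is a naming convention and not a family. Foxp1 is a forkhead transcription factor that mainly represses transcription, and in the mammary gland dormant stem cells need it to become active.

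In basal cells the 371 regions had 6 to 437 reads in ChIP, with a median of 185, and 11 to 342 in input, with a median of 154. In luminal cells they had 4 to 431 reads in ChIP (median 161) and 12 to 423 in input (median 213). Of the 14 regions below the minimum, 8 were at 0 in all libraries, among them Zfp91, a ubiquitin ligase gene, and 6 had 11 to 32 reads in all. Next to the minimum, Zfp472 was kept with 47 reads in all and Zfp13 was left out with 32. Another gene lay within 238 bp of each of the 12 kept regions that had fewer than 100 reads over the 4 libraries. Library totals over all genes ranged between 3080114 reads (basal input) and 4201459 (luminal input). Cell identity cannot be read from DNA libraries as from RNA. The ChIP ratio was called higher in basal than in luminal cells for 6 of 12 basal marker genes, the keratin genes Krt5 and Krt14 among them. The share over all tested genes was 3.72%. Of 12 luminal markers 1, Prlr, was called higher in luminal cells, against 4.16%. Over own input, 2 basal markers and 1 luminal marker, Epcam, were called higher in basal cells, against 4.24% of all tested genes. In luminal cells it was 0 and 4, against 1.5%. Between the inputs, Krt14 was called higher, and Epcam and Kit lower, in basal input. No marker of fibroblasts, endothelium, leukocytes or adipocytes was called higher in ChIP than in its own input, although by the difference between cell types the fibroblast marker Dcn was called higher in luminal cells.

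Each ratio below compares scaled reads of a ChIP library with those of its own input and carries an exact 99% interval of the counts. A region was called higher or lower when the ratio reached 1.5-fold and the interval excluded 1. With 1 library in each group there is no replicate and no p-value, so a call compares libraries, and the intervals cover counting error only and treat every read as a separate molecule.

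Start-site windows of 7 called regions from both ends of the ratios are printed here because CpG content is compared with the ratios further on. Zfp985 and Zfp143 met the same selection rule, were not called and are not shown. Each runs 5′ to 3′ from 250 bases before to 50 bases after a RefSeq start (GRCm38.p6) and capitals mark every CpG. Zfp131 (chr13:119790683-119790982 on the minus strand), Zfp280d (chr9:72274638-72274937 on the plus strand) and Zfp451 (chr1:33814546-33814845 on the minus strand) were called higher in basal cells, Zfp280d also in luminal cells, and Zfp367 (chr13:64153150-64153449 on the minus strand) in luminal cells. Zfp982 (chr4:147442864-147443163 on the plus strand) was called lower in basal cells. Zfp738 (chr13:67683463-67683762 on the minus strand) and Zfp385c (chr11:100650644-100650943 on the minus strand) were called lower in luminal cells.
Zfp131: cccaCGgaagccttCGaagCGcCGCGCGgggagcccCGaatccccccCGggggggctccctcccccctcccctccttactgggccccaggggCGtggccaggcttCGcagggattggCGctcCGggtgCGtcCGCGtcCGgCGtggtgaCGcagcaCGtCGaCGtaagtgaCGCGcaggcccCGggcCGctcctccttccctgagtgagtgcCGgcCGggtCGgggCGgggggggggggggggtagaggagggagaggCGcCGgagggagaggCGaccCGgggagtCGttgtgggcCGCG
Zfp280d: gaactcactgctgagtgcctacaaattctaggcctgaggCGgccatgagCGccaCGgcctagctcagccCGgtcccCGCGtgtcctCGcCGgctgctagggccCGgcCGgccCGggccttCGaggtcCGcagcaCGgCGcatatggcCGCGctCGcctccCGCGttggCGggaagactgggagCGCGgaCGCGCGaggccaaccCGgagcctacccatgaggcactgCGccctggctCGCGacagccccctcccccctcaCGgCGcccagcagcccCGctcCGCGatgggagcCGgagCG
Zfp451: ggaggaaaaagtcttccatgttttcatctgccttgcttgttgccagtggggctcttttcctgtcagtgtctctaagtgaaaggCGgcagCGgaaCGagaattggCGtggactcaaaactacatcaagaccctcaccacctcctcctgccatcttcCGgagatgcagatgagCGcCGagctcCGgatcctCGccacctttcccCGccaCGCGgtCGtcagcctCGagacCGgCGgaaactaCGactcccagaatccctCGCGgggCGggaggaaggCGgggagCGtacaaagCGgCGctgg
Zfp367: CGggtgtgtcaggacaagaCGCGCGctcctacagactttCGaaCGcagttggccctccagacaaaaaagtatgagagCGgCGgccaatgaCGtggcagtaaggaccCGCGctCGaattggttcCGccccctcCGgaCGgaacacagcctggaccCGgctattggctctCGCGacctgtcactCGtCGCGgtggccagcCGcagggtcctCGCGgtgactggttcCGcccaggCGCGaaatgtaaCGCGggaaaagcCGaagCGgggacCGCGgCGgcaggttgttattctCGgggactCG
Zfp982: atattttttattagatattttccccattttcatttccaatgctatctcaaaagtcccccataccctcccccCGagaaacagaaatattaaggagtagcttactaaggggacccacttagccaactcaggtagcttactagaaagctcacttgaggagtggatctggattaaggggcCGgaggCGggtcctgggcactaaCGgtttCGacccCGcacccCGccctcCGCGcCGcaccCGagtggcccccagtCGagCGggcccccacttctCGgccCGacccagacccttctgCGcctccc
Zfp738: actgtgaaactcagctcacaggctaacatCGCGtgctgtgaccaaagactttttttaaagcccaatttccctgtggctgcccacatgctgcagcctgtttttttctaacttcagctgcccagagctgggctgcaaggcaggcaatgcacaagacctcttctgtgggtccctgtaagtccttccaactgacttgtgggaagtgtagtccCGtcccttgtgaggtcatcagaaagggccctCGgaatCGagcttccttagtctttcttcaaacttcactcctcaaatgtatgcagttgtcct
Zfp385c: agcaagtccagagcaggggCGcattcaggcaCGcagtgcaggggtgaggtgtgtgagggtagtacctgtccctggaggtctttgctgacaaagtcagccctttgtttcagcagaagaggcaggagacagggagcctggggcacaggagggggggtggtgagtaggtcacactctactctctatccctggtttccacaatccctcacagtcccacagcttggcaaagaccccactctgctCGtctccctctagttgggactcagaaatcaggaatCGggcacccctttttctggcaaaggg
The windows held 36 CpG in Zfp131, 37 in Zfp280d, 24 in Zfp451 and 36 in Zfp367. They held 16 CpG in Zfp982, 5 in Zfp738 and 4 in Zfp385c. The forkhead motif TGTTTAC, searched on both strands, was in none of these windows. Zfp982 and Zfp385c have 3 listed windows each, and Zfp131 and Zfp367 have 2, of which only the first is shown. The window of Zfp385c lies inside the gene, which spans chr11:100626219-100692466, so its CpG count need not hold for the other starts. The 7 windows do not stand for all called regions. Zfp775, called lower in luminal cells, had 24 CpG, and Zfp1 and Zfp874b, called higher in basal cells, had 15 and 10. The median of all windows was 7 CpG. Above it were all 11 windows of regions called higher in basal cells and 3 of the 5 called lower in luminal cells.

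In basal cells 18 of the 371 Zfp regions, 4.85%, were called higher in ChIP than in input, and 4 were called lower. Among all 23128 tested genes the same rule called 4.24% higher and 4.06% lower. The share of Zfp regions called higher was thus near that of genes at large and the share called lower, 1.08%, was below it. Among the 13744 tested genes with at least 314 reads over both inputs, 2.62% were called lower. The median log2 ratio was 0.07 in Zfp regions, with the middle 50% of them between -0.18 and 0.29, and -0.01 in all genes. The split between directions depended on the scaling. It was 11 higher and 11 lower when libraries were scaled by total counts, and 55 higher and 1 lower when ratios were centred on olfactory receptor genes, presumed silent in these cells, which moved the median of all genes to 0.20. With the inputs summed it was 10 higher and 9 lower. Over all 23128 tested genes, total counts gave 698 higher and 1311 lower, and olfactory centring 2994 and 237. Summed inputs gave 725 and 865 over all tested genes. The rise in higher calls with olfactory centring was thus also seen in genes at large.

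Zfp131, which encodes a BTB-domain zinc finger protein, had the highest lower bound in basal cells. It had 386 reads in basal ChIP over 152 in basal input, 2.16-fold (99% interval 1.68 to 2.78), and 245 in luminal ChIP over 231 in luminal input, 1.44-fold (99% interval 1.13 to 1.84), below the threshold. Zfp236 had 201 reads over 71, a log2 ratio of 1.26, and Zfp280d had 435 over 187, a log2 ratio of 0.98. Scaled to library size, Zfp131 had 105 CPM in ChIP and 48.5 CPM in input of basal cells, and 78.1 CPM in ChIP and 54.1 CPM in input of luminal cells, so basal ChIP was the highest of the 4 and both inputs were low.
Zfp703, whose human counterpart is amplified in luminal breast tumours, lies at chr8:26977336-26981462 (GRCm38.p6) and had 424 reads in basal ChIP over 194 in basal input, 1.85-fold (99% interval 1.48 to 2.33). In luminal cells it had 265 over 268, 1.35-fold (99% interval 1.07 to 1.69), and was not called. Zfp609, which in neural progenitors works with the cohesin loader Nipbl, at chr9:65691578-65827564, had 351 over 159 in basal cells. Zfp451, a SUMO ligase gene, had 327 over 154. All of these were called, and so were Zfp1 with 437 reads over 218 and Zfp462, a chromatin factor of pluripotent and neural cells, with 274 over 130.
A further 10 regions were called higher. They include Zfp326, a subunit of the DBIRD complex that links elongation to splicing (log2 0.68), Zfp335, a nuclear hormone receptor coactivator (0.69), and Zfp532 of the Z3 complex (0.63). Zfp395 (0.75), Zfp655 (0.62), Zfp874b (0.63), Zfp7 (0.62), Zfp580 (0.64) and Zfp786 (0.59) complete them together with Zfp473, which rests on 39 reads in ChIP over 15 in input. Zfp655, Zfp7, Zfp580, Zfp786 and Zfp473 were named after their values were seen. With the inputs summed as background 9 of the 18 kept their call, and Zfp326, Zfp335, Zfp395, Zfp473, Zfp532, Zfp580, Zfp7, Zfp786 and Zfp874b lost it.

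The 4 regions called lower in basal cells had 33 to 136 reads in basal ChIP and 61 to 195 in basal input. Zfp286 at chr11:62751951-62789506 had 136 reads in basal ChIP over 195 in basal input, a log2 ratio of -0.76, and Zfp982 had 33 over 61, a log2 ratio of -1.12. Zfp831 had 82 over 118 (-0.76) and the X-linked Zfp449 had 94 over 130 (-0.70). In luminal cells the same regions stood between -0.23 and 0.07, and none was called. When the interval was widened by the spread seen among olfactory receptor genes, Zfp286 alone of the 4 kept its call, while 17 of the 18 higher calls were kept.

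**Figure D1:**
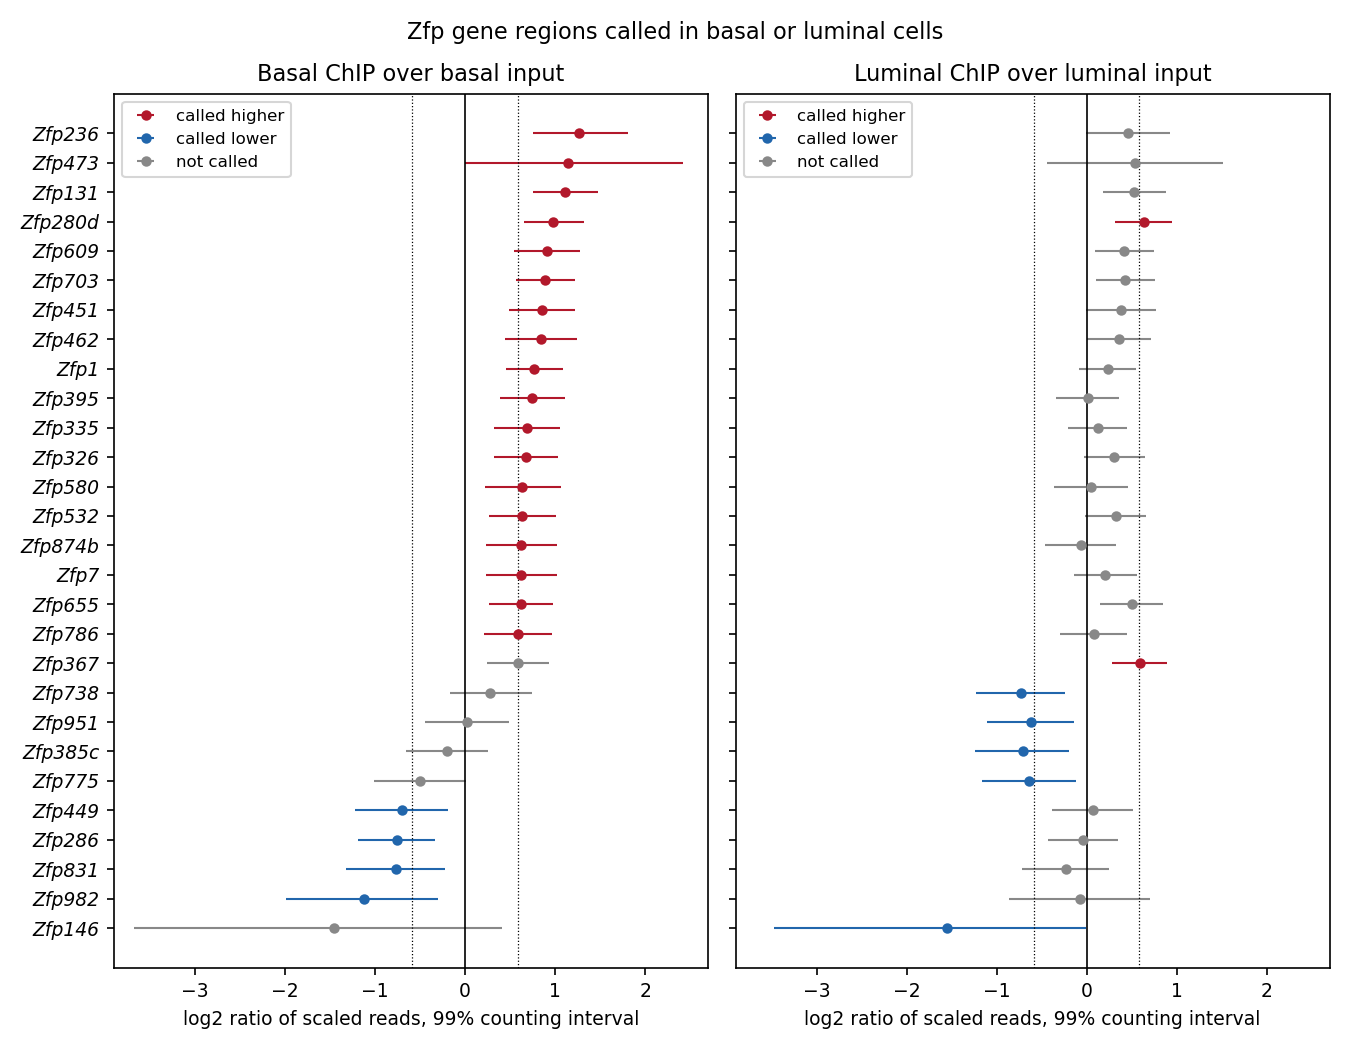
Log2 ratios of ChIP over own input in basal cells (left) and luminal cells (right) for the 28 Zfp gene regions called in either. Points are ratios of scaled reads, bars are 99% counting intervals with 1 library per group, dotted lines mark 1.5-fold, and the regions called higher in basal cells have luminal ratios of -0.06 to 0.63.

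In luminal cells 2 Zfp regions, 0.54%, were called higher and 5, 1.35%, were called lower, against 1.5% and 2.13% of all tested genes. The split was 1 higher and 5 lower with total-count scaling, against 268 and 604 of all tested genes. It was 6 higher and 2 lower when centred on olfactory receptor genes, against 571 and 306. With the inputs summed it was 6 higher and 5 lower of the 371 Zfp regions, against 410 and 554 of the 23128 tested genes, so the lower share of higher calls in Zfp regions was not seen with that background. The median log2 ratio was 0.03, and 0.00 in all genes. Zfp280d was the single region called higher in both cell types, with 303 reads in luminal ChIP over 266 in luminal input, 1.55-fold (99% interval 1.24 to 1.93). Zfp367, whose human counterpart activates globin genes, had 324 over 293, a log2 ratio of 0.59 (99% interval 0.29 to 0.89), and in basal cells 339 over 192, a log2 ratio of 0.58 that fell just short of the threshold. With total-count scaling Zfp367 was no longer called in luminal cells.
Zfp738 was lowest by its upper bound, with 86 reads in luminal ChIP over 194 in luminal input, 0.603-fold (99% interval 0.425 to 0.844). Zfp385c had 77 over 171 (log2 -0.71), Zfp951 had 93 over 194 (-0.62) and Zfp775 had 79 over 167 (-0.64). Zfp146, also called OZF because its protein consists of only zinc fingers, had 7 over 28, and its interval reached -0.01 on the log2 scale. With the widened interval Zfp738 alone of these 5 kept its call.
The 18 regions called higher in basal cells had luminal log2 ratios of -0.06 to 0.63, with a median of 0.34, and 17 of them lay above 0. The same share among other genes called higher in basal cells was not counted, so it cannot be called particular to Zfp regions. No region was called in opposite directions in the 2 cell types. Across the 371 regions, which share the 4 libraries and their depth, basal and luminal ratios had a Pearson's r of 0.28 and a Spearman's rho of 0.25. Over all tested genes r was 0.21.

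**Figure D2:**
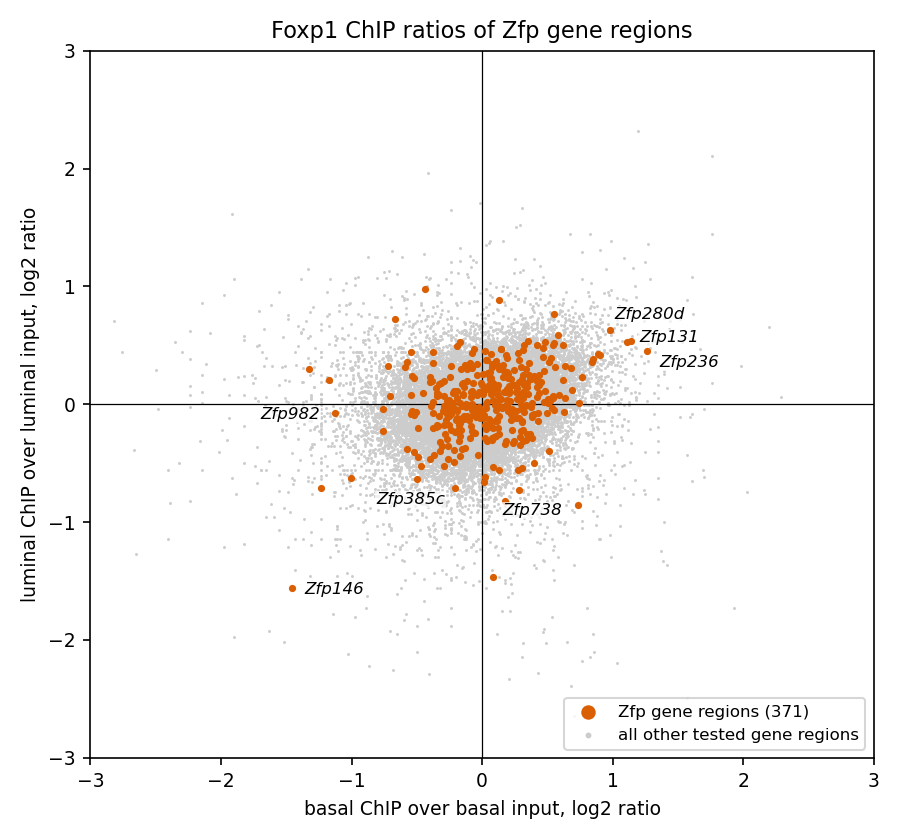
Basal against luminal log2 ratios of ChIP over own input, with 1 point per gene region. Zfp regions lie within the cloud of other genes, 10 of which fall outside the axes. Zfp236 has the highest basal ratio (1.26) and Zfp146 the lowest (-1.46).

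The difference between basal and luminal ratios was called higher in basal cells for 14 Zfp regions and higher in luminal cells for 10, against 3.72% and 4.16% of all tested genes. Centred on olfactory receptor genes, the split was 45 and 4, against 2063 and 405 of all tested genes. Zfp738 had the highest lower bound, with 172 reads in basal ChIP over 120 in basal input and 86 in luminal ChIP over 194 in luminal input, a log2 difference of 1.01 (counting standard error 0.253). Zfp395, whose human counterpart binds the huntingtin promoter, had 328 over 166 in basal and 205 over 277 in luminal cells, a difference of 0.73 (0.191).
Zfp791 (0.90), Zfp957 (0.84), Zfp949 (0.67) and Zfp874b (0.68) followed. All 14 of these regions had a basal ratio above 1, and 12 had a luminal ratio below 1. Of the 14, Zfp395, Zfp874b and Zfp236 were called higher over their own input in basal cells.
At the other end, Zfp935 had 131 reads in basal ChIP over 166 in basal input and 178 in luminal ChIP over 189 in luminal input, a log2 difference of -0.94 (0.226). Zfp281, a GC-box binding regulator of pluripotency genes, had 212 over 234 in basal and 263 over 263 in luminal cells, a difference of -0.82 (0.186). Zfp971 (-0.99), Zfp457 (-0.72), Zfp72 (-0.78) and Zfp992 (-0.59) were the others with the lowest upper bounds. RefSeq lists Zfp457 and Zfp874b under synonyms of candidates for the regulator of sex-limitation, a locus known for sex-dependent liver genes. Of the 10, 9 had a luminal ratio above 1 and all had a basal ratio below 1, which again follows in part from the selection.
With the widened interval Zfp738 and Zfp395 remained higher in basal cells, and Zfp281 and Zfp935 higher in luminal cells. With the inputs summed, which leaves a direct ratio of the ChIP libraries, 5 of the 14 and 6 of the 10 kept their call, Zfp738 and Zfp935 among them but not Zfp395 or Zfp281.

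**Figure D3:**
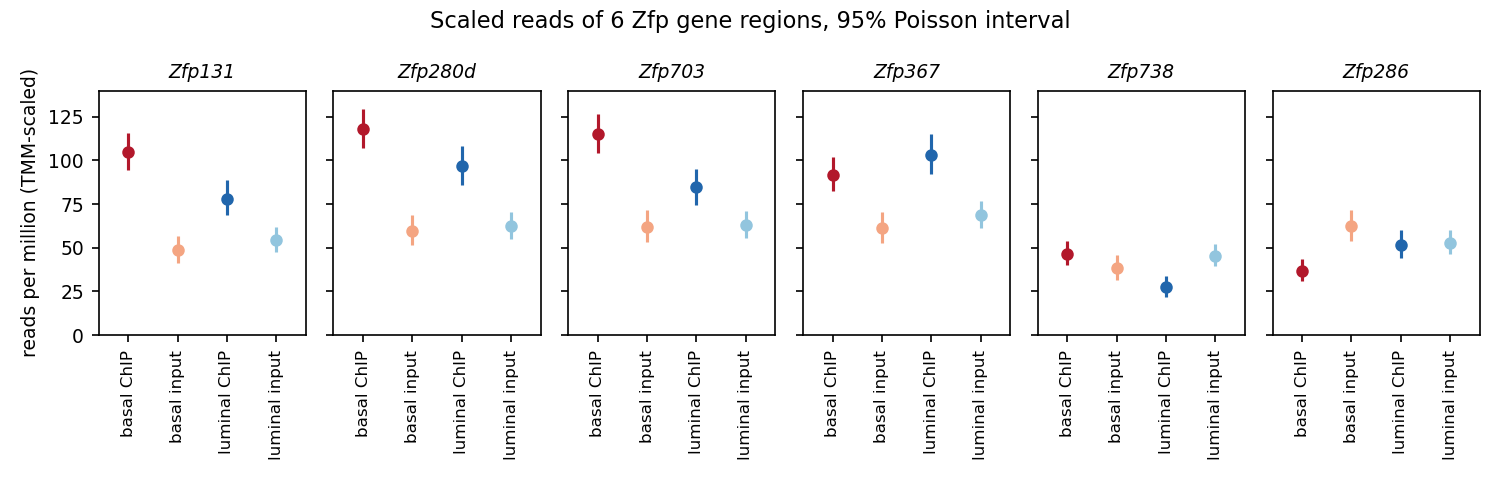
TMM-scaled CPM in each of the 4 libraries for 6 Zfp gene regions, with 95% Poisson intervals. Zfp131, Zfp280d and Zfp703 are highest in basal ChIP and Zfp367 in luminal ChIP, whereas Zfp738 is lowest in luminal ChIP and Zfp286 in basal ChIP.

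Zfp regions that stand alone had higher ratios than those near another Zfp gene. Of the 371, 160 had no other Zfp gene of the list within 100 kb and 211 had at least 1. Zinc finger genes under other names were not counted as neighbours. In basal cells the solitary regions had a median log2 ratio of 0.17 and 14 of 160 (8.75%) were called higher, whereas regions near another Zfp gene had a median of 0.00 and 4 of 211 (1.90%) were called higher. All tested genes, with 4.24% called higher and a median of -0.01, lay between the class shares and below both medians. In luminal cells the medians were 0.11 in solitary regions and -0.02 in regions near another, with 2 of 160 and 0 of 211 called higher, against 1.5% of all tested genes. The 4 called near another Zfp gene were Zfp580, Zfp7, Zfp786 and Zfp874b, none of which kept its call with the inputs summed. Zfp131, Zfp280d, Zfp703, Zfp609, Zfp451, Zfp1 and Zfp462 were all solitary.
Differences between cell types were called in both classes: 6 of 160 solitary regions were higher in basal and 2 in luminal cells, and 8 of 211 regions near another were higher in basal and 8 in luminal cells. The sources used here do not say how reads that match several places were counted, so the values of close copies are uncertain. Summed input reads had a median of 376.5 in solitary regions and 363 in regions near another. The basal difference between the class medians was 0.17 with 100 kb, 0.07 with a distance of 20 kb and 0.17 with 500 kb. Another scaling of the libraries moves both classes by the same amount.

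**Figure D4:**
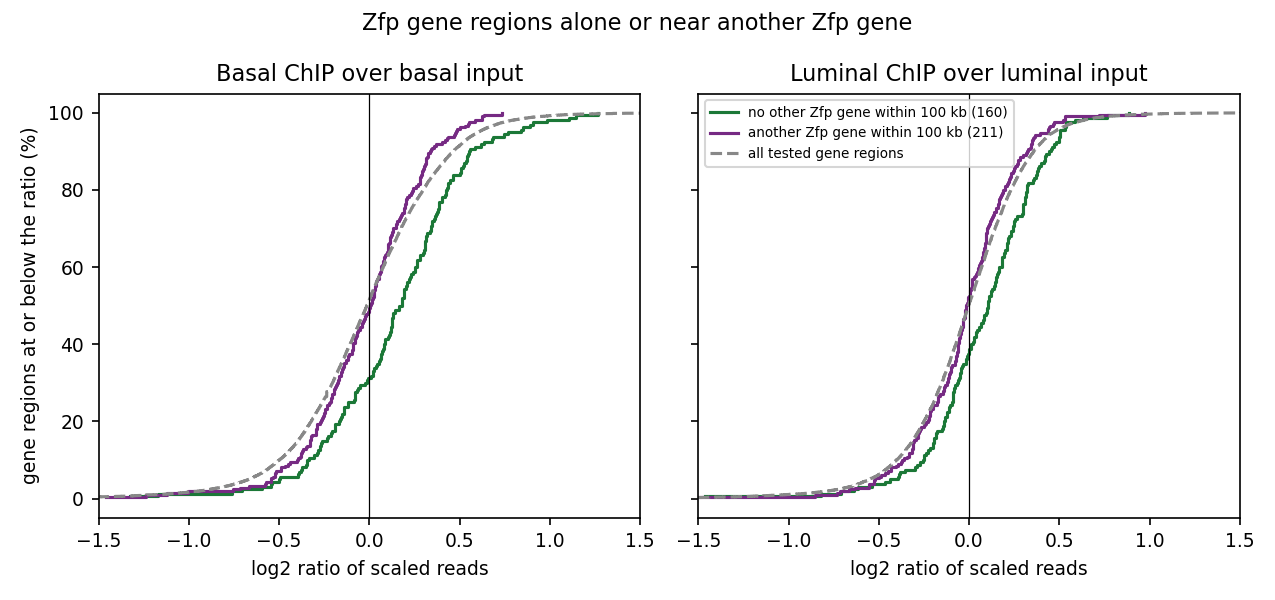
Cumulative share of gene regions by log2 ratio of ChIP over own input, in basal (left) and luminal cells (right). The 160 solitary Zfp regions (green) are shifted to higher ratios in both cell types, and the 211 regions near another Zfp gene (purple) cross 50% close to where all tested regions (dashed) do.

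Base composition at the start site was the next property examined. A RefSeq window was matched for 309 of the 371 regions, and 79.3% of these windows held more CpG than the median of 7 over all 27025 genes with a window. Zfp regions with such CpG-rich starts had a median basal log2 ratio of 0.08, and 11 of 245 were called higher. Regions at or below 7 CpG had a median of -0.09, and 0 of 64 were called higher. All tested genes showed medians of 0.09 and -0.15 on the same split, with 6.01% and 1.32% called higher. The order was thus the same in Zfp regions and in genes at large. The 62 Zfp regions without a window had a basal median of 0.10, and 7 of them (11.3%) were called higher, against 4.24% of all tested genes. Zfp236, Zfp703, Zfp609 and Zfp462 are among these 7 and have no CpG count here.
Within the CpG-rich group the median was 0.15 in the 102 solitary regions, of which 8 were called higher in basal cells, and 0.04 in the 143 near another Zfp gene, of which 3 were. In luminal cells these medians were 0.16 and -0.02. At or below 7 CpG, the 23 solitary regions had medians of -0.03 in basal and -0.09 in luminal cells. The 41 near another Zfp gene had -0.15 and -0.02. Without a window, the 35 solitary regions had 0.27 and 0.04, and the 27 near another -0.06 and 0.09. Outside the CpG-rich group the luminal order was thus the other way. Read depth moved with the ratio as well. In 4 groups of 91 to 94 Zfp regions ordered by input reads, fewest first, the basal median was -0.11, 0.03, 0.11 and 0.12, and 2, 4, 4 and 8 regions were called higher. The upper 3 groups begin at 314 summed input reads. Over the 13744 tested genes with at least that many, the basal median was 0.05. Of these, 5.78% were called higher and 2.62% lower, against 4.24% and 4.06% of all tested genes. In solitary regions alone the medians over the same groups were 0.06, 0.03, 0.21 and 0.32, and in regions near another they were -0.15, 0.00, 0.06 and 0.02. The part of depth in the calls was not tested.

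The forkhead motif TGTTTAC was present in 5 of the 309 windows, 1.62%, against 3.55% of all 27025 windows. The 5 were Zfp280c, Zfp551, Zfp688, Zfp874a and Zfp874b, with basal log2 ratios of -0.52 to 0.63, named after their values were seen. Of all 531 tested genes with the motif in their window, 7.34% were called higher and 3.58% lower in basal cells. Of the 16901 without it, 4.14% and 3.98% were. Among the 5 Zfp regions, Zfp874b was the 1 called. Its window (chr13:67484204-67484503 on the minus strand) is shown for that reason, chosen after the values were seen, with the match in capitals as the reverse complement GTAAACA downstream of the start.
Zfp874b: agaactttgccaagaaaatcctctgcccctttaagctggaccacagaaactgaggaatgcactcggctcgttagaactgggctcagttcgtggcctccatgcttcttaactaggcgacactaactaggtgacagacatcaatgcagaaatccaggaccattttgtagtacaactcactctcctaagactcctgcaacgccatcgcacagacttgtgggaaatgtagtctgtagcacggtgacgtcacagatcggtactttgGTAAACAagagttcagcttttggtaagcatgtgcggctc
A match is a run of letters in this window and not a bound site. The sources used here do not say which part of the gene was counted.

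By chromosome the 371 regions were most numerous on chromosome 7 (87), chromosome 17 (43) and chromosome 13 (37), where large clusters lie. Median basal log2 ratios there were 0.04, 0.05 and -0.03, and no region on chromosome 17 was called in either cell type. The 11 regions on chromosome 18 had the highest median among chromosomes with at least 10 Zfp regions, 0.43 in basal and 0.31 in luminal cells, against 0.01 and 0.02 for all 585 tested genes of that chromosome. They include Zfp236, Zfp532, Zfp516, a brown fat regulator with 324 reads over 187 in basal cells, and Zfp521, a regulator of blood and neural progenitors with 278 over 162. Without chromosome 18 the solitary regions still had a basal median of 0.14 and the others 0.00. The 23 regions on chromosome 4 had a basal median of -0.22.

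The groups of Zfp genes with a known role hold 3 to 9 regions, and their counts are descriptions. The shares over all tested genes were 4.24% for higher and 4.06% for lower calls in basal cells, and 1.5% and 2.13% in luminal cells. Promoter-binding factors had 2 of 7 regions called higher in basal cells, Zfp131 and Zfp335, and none in luminal cells. Zfp143, an activator of small nuclear RNA and many other promoters, had 399 reads in basal ChIP over 307 in basal input (log2 0.14) and 431 in luminal ChIP over 423 in luminal input (0.47), and was not called. Zfp384 had log2 ratios of 0.32 in basal and 0.51 in luminal cells. Zfp148 could not be judged, with 14 to 23 reads per library.
Of 5 genes tied to the breast, Zfp703 was called in basal cells. Its relative Zfp503 had 335 reads over 210 in basal cells (0.44) and 250 over 304 in luminal cells (0.16), and Zfp217, whose human counterpart is a breast cancer oncogene, had 199 over 136 (0.31) and 163 over 206 (0.11). Neither passed, nor did Zfp652 (-0.28 and -0.13) or Zfp366, a corepressor of nuclear receptors (0.07 and -0.30).
Factors in RNA processing, ribosome surveillance, mitosis and SUMO transfer had 2 of 9 measured regions called higher in basal cells, Zfp451 and Zfp326. Zfp598, the ligase that marks collided ribosomes, had a log2 ratio of 0.37 and Zfp207, a spindle factor, 0.12. All 3 genes of the Z3 complex, which binds the chromatin reader Zmynd8, lay above 0 in both cell types. Zfp532 was called in basal cells, and Zfp592 (0.46) and Zfp687 (0.34) were not.
The 6 genes of genome defence and imprinting, all with KRAB domains, held no call, which in a group of this size cannot be told apart from the shares over all genes. Zfp57, which guards imprints together with Zfp445, had 226 reads over 155 in basal cells (0.31) and 129 over 194 in luminal cells (-0.14). Zfp445 had -0.09 and 0.06, Zfp568, a silencer of an Igf2 transcript, 0.30 and -0.15, and Zfp809, a silencer of proviruses, 0.43 and 0.25. Of 6 pluripotency and stem cell factors Zfp462 alone was called, and Zfp42, the stem cell marker also named Rex1, had -0.12 and 0.00. No region was called among 4 adipocyte and bone precursor factors, with Zfp423 at 0.07 and 0.22, or among 5 signalling factors, with Zfp385a, a p53 cofactor, at 0.19 and -0.02.

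The partners of KRAB proteins were set beside them. Of 20 corepressor and silencing genes 2 were called higher in basal cells, 1 lower in basal cells and 2 lower in luminal cells, with medians of 0.38 in basal and 0.07 in luminal cells. The shares over all tested genes were 4.24%, 4.06% and 2.13%. By the difference, 3 of the 20, Uhrf1, Chd3 and Hdac1, were called higher in basal cells, against 3.72% of all tested genes. Atf7ip, the partner that stabilises the methyltransferase Setdb1, had 445 reads in basal ChIP over 198 in basal input (log2 0.93), and the chromatin remodeler gene Smarcad1 had 332 over 161 (0.81). Trim28 itself had 201 over 173 in basal cells (-0.02) and 210 over 208 in luminal cells (0.46), and Setdb1 had 0.28 and 0.08, neither of them called. Chd4, a NuRD remodeler, was called lower in basal cells on 7 reads over 22, and Uhrf1 and Pphln1 were called lower in luminal cells.
Other zinc finger genes were also compared, beside 4.24% higher and 4.06% lower calls over all tested genes in basal cells and 1.5% and 2.13% in luminal cells. Of 37 Zbtb regions, which encode BTB-domain zinc finger proteins, 3 were called higher in basal cells, with medians of 0.17 in basal and 0.12 in luminal cells, and 1 higher and 1 lower in luminal cells. The 16 Zscan regions had medians of 0.04 and -0.03, with 1 called higher and 1 lower in basal cells, and the 11 Zkscan regions had 0.06 and -0.04, with 1 called lower in luminal cells.

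The inputs were compared with each other by the same rule to measure a background without antibody. Of the Zfp regions 1, Zfp408, was called higher in basal input (38 reads over 23 in luminal input) and none lower, against 0.709% and 0.463% of all tested genes. Centred on olfactory receptor genes, 0 were higher and 11 lower, against 13 and 904 of all tested genes. The median log2 ratio between inputs was -0.03. The variance of Zfp region counts around a common split was 4.19 times that of counting alone in basal ChIP over input, 2.65 times in luminal ChIP over input and 1.45 times between the inputs. Over all tested genes these values were 4.45, 2.87 and 1.91, above those of Zfp regions in each comparison, and among 1089 olfactory receptor genes they were 2.29, 2.13 and 1.32.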

How the data were processed

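The authors deposited raw read counts per gene for 4 ChIP-seq libraries, not normalized. Per the submitters' processing notes, reads were counted with featureCounts on mm10. The sources used here give no aligner, duplicate handling or counted part of each gene. The per-sample files hold the same counts as the series table for 24548 of 24548 genes. Depth, and so the width of each interval, follows from the counts of the 2 libraries compared.

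TMM factors (edgeR 4.0.16, R 4.3.3) were computed on the 23128 genes with 40 or more counts over the 4 libraries. Ratios, Clopper-Pearson 99% intervals and medians were computed over that whole table (Python 3.11.15, scipy 1.17.1, pandas 2.3.3). A count of 0.5 was added only where a library was at 0, and to all 4 counts for the difference between cell types. The code was tested on simulated data. DESeq2 1.42.0 size factors, other scalings, filters, backgrounds, intervals and thresholds were alternatives.

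All 385 gene IDs were found in the RefSeq gene table of GRCm38.p6, and the first window listed per gene was used. Of the 371 regions, 55 had more than 1 window. Named regions were, per cell type, up to 8 called higher by lower bound and 8 called lower by upper bound, 6 at each end of the difference, those called in both cell types and a list of known roles. Members and lists were chosen with earlier results of these data known. A split by KRAB domain was not made, as no protein sequences were used here.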

Additional observations from a re-analysis of the deposited data

Results flagged for a closer look

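The 12 Zfp regions named for the highest lower or lowest upper bounds of the difference between cell types were marked for a closer look. In each, the basal and luminal ratios differed by 1.5-fold or more with a 99% counting interval that excluded 1. They are not all that met this rule, which called 14 Zfp regions higher in basal and 10 higher in luminal cells. Zfp236 (log2 difference 0.80), Zfp286 (-0.72) and Zfp449 (-0.77), named for other reasons, also met it. With 1 library per group the difference was not tested across animals. On the log2 scale it was 1.01 in Zfp738, 0.73 in Zfp395, 0.90 in Zfp791, 0.84 in Zfp957, 0.67 in Zfp949 and 0.68 in Zfp874b, all higher in basal cells. It was -0.94 in Zfp935, -0.82 in Zfp281, -0.99 in Zfp971, -0.72 in Zfp457, -0.78 in Zfp72 and -0.59 in Zfp992, all higher in luminal cells. Of the 12, 5 lie on chromosome 13 within 100 kb of another Zfp gene. Zfp738 and Zfp874b among them were higher in basal cells, and Zfp457, Zfp72 and Zfp935 in luminal cells. Of all 371 Zfp regions 211 lie within 100 kb of another and 37 lie on chromosome 13. By the difference, 3 of these 37 were called higher in basal and 4 in luminal cells. Over all 907 tested genes of that chromosome the shares were 3.09% and 4.63%.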

How the results depend on the processing

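No paired analysis was possible because each group has 1 library. Calls are given as basal higher and lower, then luminal higher and lower, then difference higher in basal and in luminal cells. DESeq2 size factors, no count filter and a minimum of 100 counts moved none of the counts of called Zfp regions by more than 1.5 times. With total counts basal calls were 11 and 11 and luminal calls 1 higher, with medians of 0.0093 and -0.0080. All tested genes then had 698 and 1311 basal calls and 268 higher luminal calls. Centred on olfactory receptors, calls were 55 and 1, 6 and 2, and 45 and 4, with medians of 0.28, 0.095 and 0.18. Between the inputs they were 0 higher and 11 lower with a median of -0.24. All tested genes then had 2994 and 237, 571 and 306, and 2063 and 405, with 13 and 904 between the inputs. With the inputs summed basal calls were 10 and 9, luminal calls 6 higher and the difference 9 higher. Over all tested genes these were 725 and 865, 410 and 937. The widened interval left 1 basal and 1 luminal lower call and a difference of 2 and 2. Over all tested genes it left 243 and 124 lower calls and a difference of 204 and 128. At 95% there were 9 basal lower and 5 luminal higher calls, and 2 between the inputs. All tested genes had 1209, 435 and 261 of these. At the lower fold threshold calls were 52 and 17, 28 and 12, and 26 in the difference, with 4 and 7 between the inputs. All tested genes had 2705 and 1737, 1543 and 1004, and 1146, with 688 and 584 between the inputs. At 2-fold the Zfp calls were 3 and 1, 0 and 1, and 2 and 1. Those of all tested genes were 128 and 222, 47 and 132, and 133 and 239. Leaving out regions near another Zfp gene gave 2 basal lower, 3 luminal lower and a difference of 6 and 2, with medians of 0.17, 0.11 and 0.085, from fewer regions. Leaving out regions within 5000 bp of any gene gave 10 basal higher, 1 luminal higher, 2 luminal lower, a difference of 9 and 6 and 0 higher between the inputs, from fewer regions. The class distances of 20 kb and 500 kb were chosen after seeing the data, and with 20 kb the basal difference of medians was 0.073. The causes were not tested unless stated. No named region reversed a called direction. Over the values of named regions, the widened interval ended 18 calls, the summed inputs ended 16 and added 7, and olfactory centring ended 10 and added 22. Depth limits the smallest regions: on 39 reads over 15, the 99% interval of Zfp473 ran from 0.00 to 2.42 on the log2 scale.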
